A study of Mus musculus with 10 samples.

Results

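The genes described here are the enzymes of cholesterol and fatty acid synthesis in mouse TH2 cells, with the sterol sensors and transcription factors that set their level and the genes that carry cholesterol inside and out of the cell. A list of 36 symbols was matched to the Ensembl identifiers of the deposited count table, and all 36 were found among its 49671 genes. RNA sequencing compared TH2 cells, helper T lymphocytes of type 2 immunity, between 7 libraries from vitamin D-deficient mice and 3 libraries from mice on a regular diet. All mice were C57BL/6 and are labelled WT. The deficient mice were raised without UV light, on a diet free of vitamin D metabolites. The regular mice are described as otherwise kept alike, and their feed held 400 IU of vitamin D3 in each kg. Second-generation offspring were used. In both groups RNA was taken on day 5 of polarisation, so it is that of polarised cells and not of T cells fresh from the animal. Batch 1 held 5 deficient and 2 regular libraries, and batch 2 held 2 deficient libraries and 1 regular library. The labels give neither age nor sex, and they do not say that each library came from its own mouse, so the p-values rest on a spread between samples that may be technical only.

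Cholesterol is built from acetyl-CoA along the mevalonate pathway, which ends in squalene, and then along the sterol pathway, which closes and trims the rings. When sterols in the endoplasmic reticulum run low, the escort protein SCAP carries the SREBP transcription factors to the Golgi, where they are cut and released to the nucleus. SREBP-2 acts mainly on cholesterol genes and SREBP-1 mainly on fatty acid genes, while INSIG proteins hold SCAP back when sterols are plentiful. The LXR receptors answer to oxysterols and turn on cholesterol export. In T cells this programme is known to be switched on with activation, when a dividing cell has to build new membrane.

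Library totals ran from 7029207 to 13433276 counts in the deficient group and from 5800698 to 6462146 counts in the regular group. Levels are given in CPM, the counts scaled to a fixed library total. The fold changes also use TMM scaling factors, which CPM, their sums and their ranges do not. These factors ran from 0.942 to 0.971 in regular and from 0.994 to 1.06 in deficient libraries. CPM therefore place deficient cells slightly higher than the fold changes do. Log2 fold changes are deficient minus regular, fitted with batch as a term, and the threshold is an adjusted p of 0.05 by the Benjamini-Hochberg method over all 13699 genes tested (edgeR). Of those genes, 28.6% passed downward and 29.4% upward, 58.0% in all, so a pass alone is common in this comparison. Neither the batch term nor the product of diet and batch called any gene at the adjusted p of edgeR, DESeq2 or limma-voom. At an unadjusted p below 0.05, edgeR, DESeq2 and limma-voom gave 1038, 915 and 1235 genes for batch, among them 4, 5 and 5 of the 36, and 565, 277 and 358 genes for diet by batch, among them 1, 0 and 1. Cd4, the helper T cell coreceptor, stood at 335 ± 30.9 CPM in deficient cells and 723 ± 13.8 CPM in regular cells, and Gata3, the TH2 master regulator, at 36.7 ± 3.95 CPM in deficient cells and 61.97 ± 4.49 CPM in regular cells (SD, n = 7 and 3).

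Most of the lipid genes were lower in the deficient cells. All 36 members had enough counts to be tested, and 28 fell, 2 rose and 6 did not pass. The median log2 fold change of the members was -1.07, against 0.015 over all genes tested. The fall reached at least 2-fold in 20 members, against 8.71% of all genes, and 1 member (Abcg1) rose by at least 2-fold, against 10.3%. In 26 members every deficient library lay below every regular library, which 21.4% of all genes also showed, and in 3 members every deficient library lay above, against 29.4% of all genes. By class, all 20 SREBP-2 targets fell with a median of -1.25, 6 of 7 SREBP-1 targets fell with a median of -0.64, and of the 3 LXR targets 1 fell, 1 rose and 1 did not pass. Within batch 1 alone the medians of the SREBP-2 and SREBP-1 targets were -1.25 and -0.64, and within batch 2 they were -1.23 and -0.63.

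**Figure D1:**
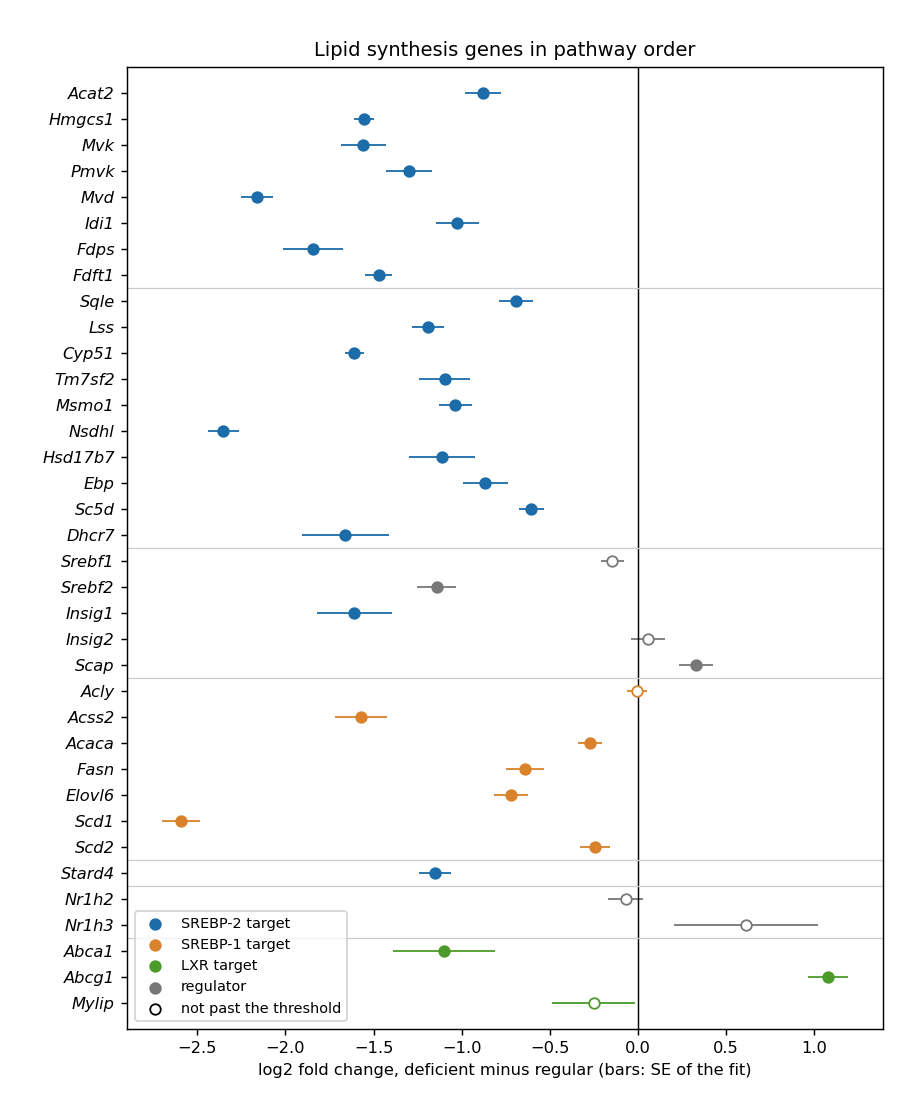
Log2 fold change, deficient minus regular, of the 36 genes in pathway order from the first mevalonate step at the top to the LXR targets at the bottom, with bars for the standard error of the fit. Filled points passed the adjusted p threshold; colours mark SREBP-2, SREBP-1 and LXR targets and regulators, and all 20 SREBP-2 targets lie left of 0.

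Markers of other cells and of division differed between the groups, and in bulk RNA fewer cells of a type and less RNA per cell cannot be told apart. The counts of markers below stand against 28.6% of all genes tested that fell and 29.4% that rose. Of 10 markers of dividing cells 7 fell and 2 rose, and their sum ran from 1977 to 3258 CPM in deficient cells and 3921 to 4078 CPM in regular cells. Mki67 stood at 628 ± 138 CPM in deficient cells and 1306 ± 35.6 CPM in regular cells and Top2a at 915 ± 153 CPM in deficient cells and 1622 ± 61.7 CPM in regular cells (SD, n = 7 and 3). Most of the sum is these 2 genes: the other 8 summed to 737 to 1233 CPM in deficient cells and 1079 to 1106 CPM in regular cells, which overlap. The 2 that rose were the replication genes Pcna and Mcm2, at 0.57 and 0.35, and Mcm5 did not pass at 0.24. Deficient libraries 5 to 7, of which 5 is in batch 1 and 6 and 7 are in batch 2, had the lowest sums of the 10 markers, at 1996, 1977 and 2140.5 CPM, and had sums of the 18 cholesterol enzymes of 776, 788 and 750.1 CPM, where libraries 1 to 4 gave 679, 722, 681 and 767 CPM. Markers of CD8 T cells and cytotoxic lymphocytes (8 of 10 rose, 0 fell) summed to 687 to 1958 CPM in deficient cells and 99.4 to 202 CPM in regular cells, and B cell markers (3 of 8 rose, 0 fell) to 74.5 to 349 CPM in deficient cells and 15.9 to 106 CPM in regular cells. Macrophage and monocyte markers summed to 5.53 to 8.35 CPM in deficient cells and 15.9 to 17.8 CPM in regular cells (3 of 7 tested, 1 rose and 1 fell). Most of that sum is Cd68, the 1 that fell, at 3.99 ± 0.709 CPM in deficient cells and 13.9 ± 0.753 CPM in regular cells. Adgre1, the 1 that rose, had means of 0.899 CPM in deficient cells and 0.315 CPM in regular cells. Dendritic cell markers summed to 38.6 to 79.2 CPM in deficient cells and 37.8 to 49.5 CPM in regular cells (5 of 7 tested, 2 rose). Siglech, which was not tested, was at 0 in all deficient libraries and had only 2 counts in the regular libraries together. The TH2 markers summed to 584 to 715 CPM in deficient cells and 903 to 975 CPM in regular cells. Most of that sum is Cd4, with means of 335 CPM in deficient cells and 723 CPM in regular cells. The next largest, Il13, went the other way, with means of 199.6 CPM in deficient cells and 80.9 CPM in regular cells. The lower sum thus rests on Cd4 and is not shared by all 6 markers. Of the 6, Cd4, Cd3e and Gata3 fell, the cytokine genes Il13 and Il5 rose by 1.21 and 0.84, and Il4 did not pass at 0.052. The part of these differences in the lipid gene values was not tested. Without deficient libraries 5 to 7, which leaves batch 2 with 1 regular library only and so rests the comparison on 4 deficient and 2 regular libraries of batch 1, 28 members fell and 1 rose, and the medians of the SREBP-2 and SREBP-1 targets were -1.38 and -0.62.

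The 8 genes of the mevalonate arm, from acetyl-CoA to squalene, all fell. Their median log2 fold change was -1.51, and their summed level was 312 ± 21.8 CPM in deficient cells and 827 ± 31.7 CPM in regular cells (SD, n = 7 and 3). Hmgcs1 (chromosome 13, 119690379 to 119708260 of GRCm38), the synthase that makes HMG-CoA, read 137, 157 and 169 CPM in deficient cells (lowest, median and highest of 7), against 417, 436 and 453 CPM in the 3 regular libraries. The deficient libraries were close together and far below the regular ones. Its log2 fold change was -1.55 (SE 0.0574, edgeR adjusted p = 1.44e-11). Mvk, which phosphorylates mevalonate, read 7.98, 11.3 and 13.2 CPM in deficient cells (lowest, median and highest of 7), against 30.2, 30.6 and 30.02 CPM in the 3 regular libraries. The groups did not overlap, at -1.56 (SE 0.126, edgeR adjusted p = 6.98e-08). Mvd (chromosome 8, 122433601 to 122443422), the decarboxylase that yields isopentenyl diphosphate, read 12.8, 14.8 and 19.6 CPM in deficient cells (lowest, median and highest of 7), against 58.96, 67.8 and 73.5 CPM in the 3 regular libraries. With -2.16 (SE 0.0929, edgeR adjusted p = 7.35e-11) it fell furthest of the arm, and the groups were far apart. Fdft1, the squalene synthase that commits the pathway to sterols, read 42.3, 53.5 and 56.2 CPM in deficient cells (lowest, median and highest of 7), against 139, 126 and 142 CPM in the 3 regular libraries. Its groups were likewise apart, at -1.47 (SE 0.0741, edgeR adjusted p = 4.21e-10).

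The other mevalonate genes fell by different amounts. Acat2, which joins the first acetyl-CoA units, fell least, at -0.88 (SE 0.104, edgeR adjusted p = 3.67e-06). Its transcripts share 39.1% of their 50-base stretches with the neighbouring copy Acat3, so its level is uncertain. Pmvk, the phosphomevalonate kinase, and Idi1, which isomerises isopentenyl diphosphate, fell by 1.30 and 1.02 on the log2 scale. Fdps, which makes farnesyl diphosphate, fell by 1.84 at a low level, with means of 3.46 ± 1.02 CPM in deficient cells and 11.7 ± 1.503 CPM in regular cells. An annotated gene on the same strand, Gm43738, covers 26.7% of the Fdps exons, and reads there may have been counted for neither. Idi1 shares 17.7% of its stretches with the locus Gm13502. For Fdft1, 18.3% of the exon bases are also exons of Ctsb on the other strand, and for Hmgcs1 12.1% overlap Gm48342. Since the strand setting of the counting is not given in the sources used here, reads in these stretches cannot be assigned with certainty.

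All 10 genes of the sterol arm, from squalene to cholesterol, also fell, with a median log2 fold change of -1.10. Their summed level was 425 ± 24.95 CPM in deficient cells and 935 ± 47.3 CPM in regular cells (SD, n = 7 and 3). Nsdhl (chromosome X, 72918557 to 72958514), a sterol dehydrogenase of the demethylation steps, read 10.8, 12.8 and 13.1 CPM in deficient cells (lowest, median and highest of 7), against 61.9, 53.9 and 62.2 CPM in the 3 regular libraries. It showed the largest fall of the arm, -2.35 (SE 0.0890, edgeR adjusted p = 1.96e-11), with a narrow range in the deficient libraries. Cyp51 (chromosome 5, 4081145 to 4104746), the lanosterol demethylase, read 116, 118 and 135 CPM in deficient cells (lowest, median and highest of 7), against 336, 342 and 373 CPM in the 3 regular libraries. The change of -1.61 (SE 0.0537, edgeR adjusted p = 4.47e-12) gave the smallest p among the 36 genes and rank 28 by p among all genes tested. Lss, which closes the rings to lanosterol, read 39.04, 42.6 and 54.04 CPM in deficient cells (lowest, median and highest of 7), against 91.4, 101 and 100.1 CPM in the 3 regular libraries. That difference came to -1.19 (SE 0.0906, edgeR adjusted p = 3.46e-08). Msmo1, which removes the methyl groups at carbon 4, read 66.2, 83.5 and 99.5 CPM in deficient cells (lowest, median and highest of 7), against 152, 159 and 176 CPM in the 3 regular libraries. Here the deficient libraries spread more widely but stayed below the regular ones, at -1.04 (SE 0.0928, edgeR adjusted p = 3.03e-07).

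The smallest falls of the sterol arm were those of Sqle, the squalene epoxidase, and Sc5d, a desaturase near the end of the pathway. Sqle stood at 68.1 ± 8.23 CPM in deficient cells and 103 ± 6.56 CPM in regular cells, a change of -0.69 (SE 0.0969, edgeR adjusted p = 2.57e-05). Sc5d stood at 46.4 ± 3.46 CPM in deficient cells and 66.4 ± 3.22 CPM in regular cells, a change of -0.60 (SE 0.0717, edgeR adjusted p = 3.82e-06). In between were Ebp, the sterol isomerase, at -0.87, Tm7sf2, a sterol reductase, at -1.10, and Hsd17b7, a ketosteroid reductase, at -1.11. Tm7sf2 shares 12.1% of its exon bases with Vps51 on the same strand. Dhcr7, the reductase that turns 7-dehydrocholesterol, the precursor of vitamin D3, into cholesterol, read 1.42, 3.34 and 3.99 CPM in deficient cells (lowest, median and highest of 7), against 8.45, 11.2 and 7.43 CPM in the 3 regular libraries. Its change was -1.66 (SE 0.248, edgeR adjusted p = 3.84e-05), on low counts. The vitamin D receptor gene Vdr, outside the 36, stood at 3.73 ± 1.65 CPM in deficient cells and 10.6 ± 0.657 CPM in regular cells, a change of -1.68 (SE 0.277, edgeR adjusted p = 0.000156). Per kilobase of exon, Hmgcs1 and Cyp51 were the most abundant of the cholesterol enzymes in both groups, at 34.1 and 27.6 CPM per kb in deficient cells and 94.7 and 79.4 CPM per kb in regular cells, and Dhcr7 was the least abundant, at 0.517 and 1.55 CPM per kb.

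**Figure D2:**
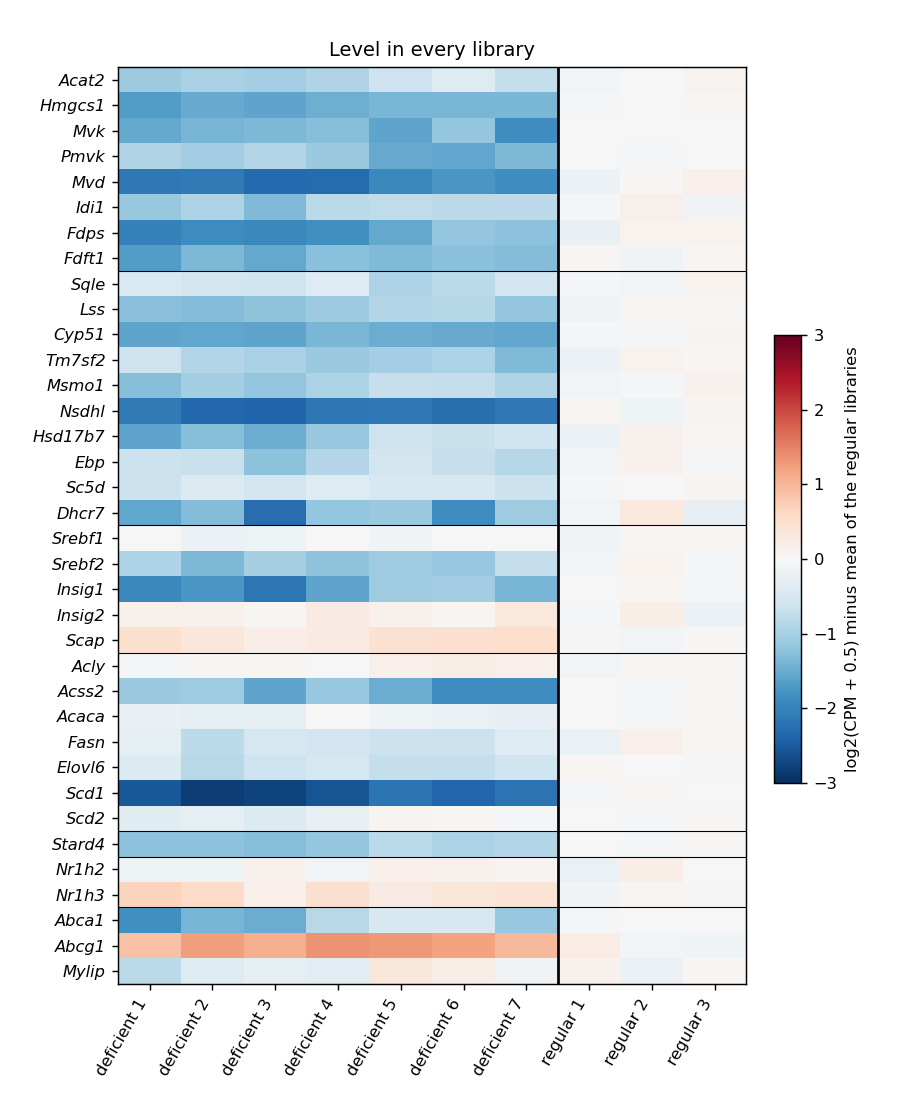
Level of the 36 genes in each of the 10 libraries, deficient libraries left of the line and regular libraries right of it, as log2(CPM + 0.5) minus the mean of the regular libraries. The mevalonate and sterol rows are blue in all 7 deficient libraries, while Abcg1 is red in all 7 and Acly and Srebf1 stay near white.

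Stard4 and Insig1, SREBP-2 targets that act outside the enzyme chain, fell as well. Stard4, a carrier that moves cholesterol between membranes, read 51.1, 55.5 and 71.1 CPM in deficient cells (lowest, median and highest of 7), against 126, 119 and 128 CPM in the 3 regular libraries. The groups were apart, at -1.15 (SE 0.0893, edgeR adjusted p = 4.36e-08). Insig1, the sterol-regulated anchor of SCAP, read 32.4, 48.7 and 70.9 CPM in deficient cells (lowest, median and highest of 7), against 147, 152 and 142 CPM in the 3 regular libraries. All deficient libraries were below the regular ones, with libraries 5 and 6 the highest of them at 69.5 and 70.9 CPM. Its log2 fold change was -1.61 (SE 0.212, edgeR adjusted p = 0.000225). Insig2, its paralog, read 28.2, 29.7 and 33.9 CPM in deficient cells (lowest, median and highest of 7), against 26.5, 31.6 and 24.1 CPM in the 3 regular libraries. These ranges overlapped, and the change of 0.057 (SE 0.0979, edgeR adjusted p = 0.638) was smaller than the spread between replicates.

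Srebf2 (chromosome 15, 82147181 to 82205379), which encodes SREBP-2, read 33.8, 41.03 and 52.3 CPM in deficient cells (lowest, median and highest of 7), against 81.9, 93.5 and 83.6 CPM in the 3 regular libraries. It was lower in each deficient library than in each regular one, at -1.14 (SE 0.111, edgeR adjusted p = 1.23e-06). Srebf1 (chromosome 11, 60199089 to 60222581), which encodes SREBP-1, read 56.3, 62.9 and 63.7 CPM in deficient cells (lowest, median and highest of 7), against 58.8, 66.1 and 65.8 CPM in the 3 regular libraries. The groups overlapped and the change of -0.15 (SE 0.0667, edgeR adjusted p = 0.0732) did not pass; without deficient library 1 it passed at -0.17. Counts per gene do not tell the SREBP-1a and SREBP-1c transcripts of this locus apart. Scap read 26.5, 31.6 and 33.3 CPM in deficient cells (lowest, median and highest of 7), against 23.6, 21.6 and 23.7 CPM in the 3 regular libraries. Every deficient library was above the regular ones, and the rise of 0.33 (SE 0.0987, edgeR adjusted p = 0.0101) missed the threshold within batch 1 (0.29), without regular library 2 or 3 (0.30 and 0.29) and without deficient libraries 5 to 7 (0.27). The uncharacterised locus 5830462I19Rik covers 13.2% of the Scap exon bases on the other strand.

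**Figure D3:**
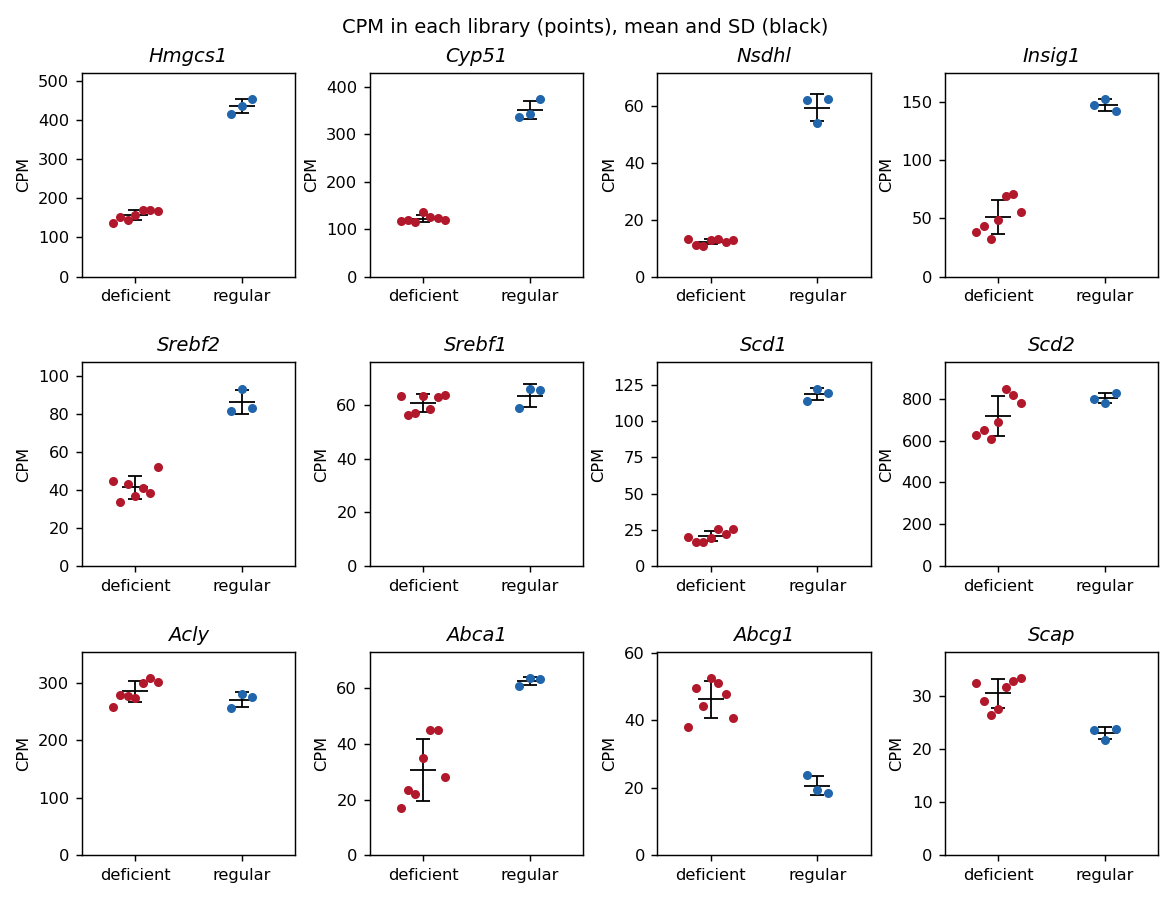
CPM of 12 genes in each library, deficient left and regular right, on axes that start at 0, with the mean and SD in black. Hmgcs1, Cyp51, Nsdhl, Insig1, Srebf2, Scd1 and Abca1 show deficient libraries below all regular ones, Abcg1 and Scap show them above, and Srebf1, Scd2 and Acly overlap.

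Promoter sequences from 250 bases before to 50 bases after each annotated start were taken from RefSeq (GRCm38.p6) for the 29 members that have an entry; Fdps, Fdft1, Sqle, Scd1, Scd2, Stard4 and Abcg1 have none. They are shown because the genes of the cholesterol pathway moved together. Each sequence runs 5′ to 3′ on the gene's strand. Capitals mark the classical sterol regulatory element, TCACCCCAC, where SREBP binds, the box CCAAT, which the cofactor NF-Y binds, and the E-box CACGTG, each searched on both strands, so that CCAAT also appears as ATTGG. Hmgcs1 is given for its sterol regulatory element, Mvd and Nsdhl as the cholesterol enzymes with the largest falls, Hsd17b7 and Insig1 for an E-box beside CCAAT, and Srebf2 as the factor's own gene.
Hmgcs1 promoter, chr13:119690101-119690400, plus strand: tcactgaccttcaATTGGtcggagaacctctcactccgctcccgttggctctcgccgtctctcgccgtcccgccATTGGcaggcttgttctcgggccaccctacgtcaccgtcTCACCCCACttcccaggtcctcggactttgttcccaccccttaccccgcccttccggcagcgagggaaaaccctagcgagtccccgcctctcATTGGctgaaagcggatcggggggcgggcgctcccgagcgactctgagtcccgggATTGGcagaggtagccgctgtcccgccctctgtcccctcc
Mvd promoter, chr8:122443373-122443672, minus strand: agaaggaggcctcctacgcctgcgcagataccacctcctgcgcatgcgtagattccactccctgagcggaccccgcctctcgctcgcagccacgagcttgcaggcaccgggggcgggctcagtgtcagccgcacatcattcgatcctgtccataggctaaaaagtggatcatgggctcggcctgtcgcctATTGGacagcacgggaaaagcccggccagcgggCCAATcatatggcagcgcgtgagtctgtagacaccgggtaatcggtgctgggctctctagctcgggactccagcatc
Nsdhl promoter, chrX:72918271-72918570, plus strand: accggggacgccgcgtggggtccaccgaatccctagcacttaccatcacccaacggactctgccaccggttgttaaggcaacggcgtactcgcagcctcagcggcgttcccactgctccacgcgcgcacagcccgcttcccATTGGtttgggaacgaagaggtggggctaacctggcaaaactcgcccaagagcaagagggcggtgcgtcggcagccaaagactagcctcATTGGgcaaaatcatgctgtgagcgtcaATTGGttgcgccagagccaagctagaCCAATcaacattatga
Hsd17b7 promoter, chr1:169969156-169969455, minus strand: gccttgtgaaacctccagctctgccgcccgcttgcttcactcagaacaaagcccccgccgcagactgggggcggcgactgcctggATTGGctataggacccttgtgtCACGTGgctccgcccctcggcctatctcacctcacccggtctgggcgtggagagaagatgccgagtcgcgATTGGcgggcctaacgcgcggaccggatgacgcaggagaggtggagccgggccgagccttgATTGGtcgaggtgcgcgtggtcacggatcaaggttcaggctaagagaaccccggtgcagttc
Insig1 promoter, chr5:28071162-28071461, plus strand: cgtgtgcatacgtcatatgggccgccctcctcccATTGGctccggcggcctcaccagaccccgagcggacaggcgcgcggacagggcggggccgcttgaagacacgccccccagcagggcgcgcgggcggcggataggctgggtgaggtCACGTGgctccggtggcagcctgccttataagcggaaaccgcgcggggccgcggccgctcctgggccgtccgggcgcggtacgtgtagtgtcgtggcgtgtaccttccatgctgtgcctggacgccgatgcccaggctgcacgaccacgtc
Srebf2 promoter, chr15:82147019-82147318, plus strand: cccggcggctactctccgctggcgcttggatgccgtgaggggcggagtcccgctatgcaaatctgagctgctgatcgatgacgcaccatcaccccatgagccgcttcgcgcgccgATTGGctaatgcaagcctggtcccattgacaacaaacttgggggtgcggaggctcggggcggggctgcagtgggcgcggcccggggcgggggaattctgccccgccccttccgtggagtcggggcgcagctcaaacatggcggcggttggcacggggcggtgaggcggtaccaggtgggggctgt

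The box CCAAT was found in 18 of the 22 members that fell and have an entry, and in 4 of the 7 that did not fall (Srebf1, Insig2, Acly and Mylip). A gene with several annotated starts counts if any of its windows holds the letters. The box lay in the promoters of 15 of the 16 SREBP-2 targets with an entry (93.8%), all but Acat2, and of 3 of 5 SREBP-1 targets (Acss2, Fasn and Acly), against 41.1% of all 27025 genes in the promoter table and 43.1% of the 9678 tested genes with an entry. Hmgcs1 held 4 such boxes, of which the nearest before the start began at base -45, Nsdhl also held 4, and Mvd held 2. The exact element TCACCCCAC was found in Hmgcs1 alone, against 0.614% of all genes; there it began 137 bases before the start without touching a CCAAT box. With 1 letter left free (TCACNCCAC) the search again found Hmgcs1 alone, while 1.44% of all genes held that form. The E-box CACGTG lay in 4 of 16 SREBP-2 targets (Hsd17b7, Sc5d, Dhcr7 and Insig1), against 8.09% of all genes and 11.9% of tested genes. The direct repeat bound by LXR, a pair of AGGTCA sites with 4 bases between them, lay in the window of none of the 29 members and of 0.0148% of all genes. A match of letters is no evidence of binding, and elements outside the window or with other letters were not searched.

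Among the 7 fatty acid genes, 6 fell and Acly did not pass. Their summed level was 1172 ± 113 CPM in deficient cells and 1408 ± 34.4 CPM in regular cells (SD, n = 7 and 3), which is 83.2% of the regular sum, against 41.9% for the 18 cholesterol enzymes. Most of that sum is Scd2 and Acly, which together held 1002 ± 113 CPM in deficient cells and 1073 ± 26.4 CPM in regular cells. The other 5 genes summed to 170.3 ± 10.8 CPM in deficient cells and 336 ± 12.4 CPM in regular cells, or 50.7%. Scd1 (chromosome 19, 44394455 to 44407879), a desaturase that makes oleate and palmitoleate, read 16.4, 19.9 and 25.4 CPM in deficient cells (lowest, median and highest of 7), against 114, 122 and 119.6 CPM in the 3 regular libraries. With -2.59 (SE 0.108, edgeR adjusted p = 1.87e-10) it had the largest change of all 36 genes. Its neighbour Scd2 (chromosome 19, 44293674 to 44306864) encodes another stearoyl-CoA desaturase. Scd2 read 608, 691 and 848 CPM in deficient cells (lowest, median and highest of 7), against 798, 781 and 828 CPM in the 3 regular libraries. Libraries 5 and 6 lay within or above the regular range, and the change of -0.24 (SE 0.0848, edgeR adjusted p = 0.0251) missed the threshold without deficient library 4 (-0.23), without regular library 1 or 2 (-0.19 and -0.24), within batch 2 (-0.11), without the count filter (-0.13) and on total counts (-0.16). Per kilobase of exon, Scd2 exceeded Scd1 in both groups, at 131 against 4.25 CPM per kb in deficient cells and 147 against 24.3 CPM per kb in regular cells.

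Acss2, which makes acetyl-CoA from acetate, read 8.09, 10.7 and 14.6 CPM in deficient cells (lowest, median and highest of 7), against 31.03, 29.98 and 31.9 CPM in the 3 regular libraries. The deficient libraries were all far below the regular ones, at -1.57 (SE 0.146, edgeR adjusted p = 2.93e-07). Acly, which makes acetyl-CoA from citrate, read 257, 279 and 308 CPM in deficient cells (lowest, median and highest of 7), against 256, 280.4 and 275 CPM in the 3 regular libraries. Its groups overlapped, at -0.0075 (SE 0.0575, edgeR adjusted p = 0.92), and the sign of this value turned with the scaling, so no direction is given. Fasn, the fatty acid synthase, stood at 52.9 ± 6.24 CPM in deficient cells and 77.9 ± 9.89 CPM in regular cells, a change of -0.64 (SE 0.107, edgeR adjusted p = 0.00015). Elovl6, which extends palmitate, stood at 27.4 ± 2.65 CPM in deficient cells and 42.4 ± 1.34 CPM in regular cells, a change of -0.72 (SE 0.0938, edgeR adjusted p = 9.85e-06). Acaca, the carboxylase that makes malonyl-CoA, read 54.9, 55.9 and 66.5 CPM in deficient cells (lowest, median and highest of 7), against 65.7, 64.4 and 67.3 CPM in the 3 regular libraries. One deficient library, number 4, reached the regular range, and the change was -0.27 (SE 0.0673, edgeR adjusted p = 0.00281); it missed the threshold without the count filter (-0.16). Acaca shares 30.4% of its stretches with other annotated loci, mainly Gm5182.

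**Figure D4:**
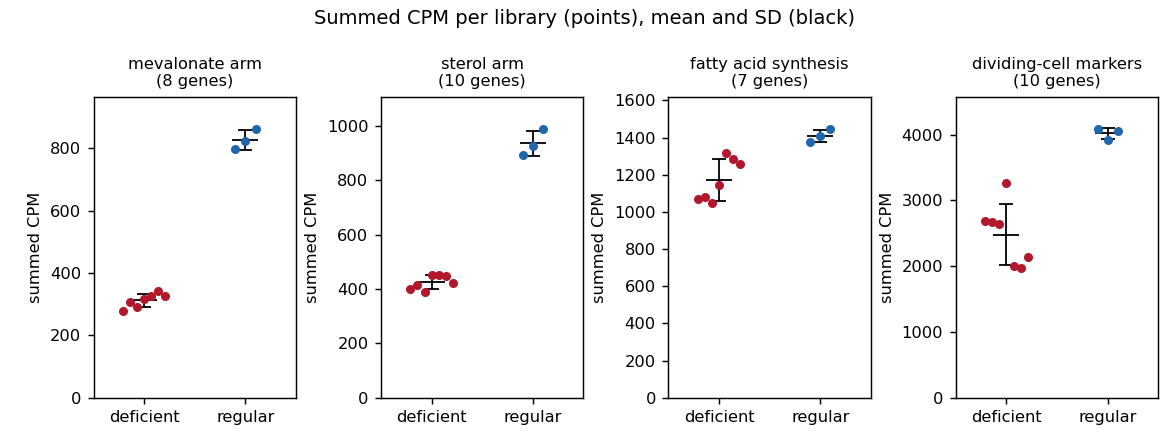
Summed CPM per library of the mevalonate arm, the sterol arm, the fatty acid genes and 10 markers of dividing cells, deficient left and regular right, with mean and SD in black. All 7 deficient libraries lie below the regular ones in each panel, and libraries 5 to 7 are the lowest for the dividing-cell markers and the highest for the fatty acid genes.

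The LXR genes were split. Abca1 (chromosome 4, 53030787 to 53159895), which exports cholesterol to apolipoprotein A-I, read 17.1, 28.03 and 44.9 CPM in deficient cells (lowest, median and highest of 7), against 60.7, 63.5 and 63.3 CPM in the 3 regular libraries. The deficient libraries ranged widely, with library 1 the lowest and libraries 5 and 6 the highest, all below the regular ones. The change of -1.10 (SE 0.287, edgeR adjusted p = 0.0113) missed the threshold within batch 2 (-0.82) and without the count filter (-0.99). Abcg1 (chromosome 17, 31057675 to 31117988), which exports cholesterol to high-density lipoprotein, read 37.9, 47.6 and 52.5 CPM in deficient cells (lowest, median and highest of 7), against 23.8, 19.4 and 18.6 CPM in the 3 regular libraries. Every deficient library was above every regular one, at 1.08 (SE 0.114, edgeR adjusted p = 1.18e-06). Mylip, the ubiquitin ligase also called IDOL, read 3.25, 4.84 and 7.77 CPM in deficient cells (lowest, median and highest of 7), against 6.72, 5.29 and 6.34 CPM in the 3 regular libraries. These values overlapped, at -0.25 (SE 0.236, edgeR adjusted p = 0.381). The receptor gene Nr1h2 (LXR beta) read 39.3, 46.4 and 48.4 CPM in deficient cells (lowest, median and highest of 7), against 37.9, 50.7 and 43.6 CPM in the 3 regular libraries. The groups overlapped, with a difference of -0.0703 (SE 0.0983, edgeR adjusted p = 0.56) whose sign turned on total counts. Nr1h3 (LXR alpha) was hardly detected and read 0.711, 0.938 and 1.24 CPM in deficient cells (lowest, median and highest of 7), against 0.517, 0.641 and 0.619 CPM in the 3 regular libraries. Its groups did not overlap, but the difference of 0.61 (SE 0.409, edgeR adjusted p = 0.212) did not pass. Per kilobase of exon, Nr1h2 stood at 13.3 and Nr1h3 at 0.383 CPM per kb in deficient cells, and at 13.1 and 0.236 CPM per kb in regular cells.

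Whether related genes moved by different amounts was tested with ratios taken inside each library, which no scaling between libraries can change. A set of 9 pairs was compared by a two-sided exact permutation test with 120 arrangements of the group labels, where the smallest p is 0.00833, and p-values were adjusted over the 9. Unlike the fitted fold changes, this test took no account of batch. The ratios come from the same libraries and counts as those fold changes, so they are no independent evidence. The log2 ratio of Srebf1 to Srebf2 was 0.56 ± 0.185 in deficient cells and -0.44 ± 0.0838 in regular cells, a difference of 1.000 (exact permutation p = 0.00833, adjusted 0.0125). That of Insig1 to Insig2 was 0.71 ± 0.420 in deficient cells and 2.43 ± 0.147 in regular cells, a difference of -1.72 (exact permutation p = 0.00833, adjusted 0.0125). For Scd1 to Scd2 the ratio was -5.11 ± 0.129 in deficient cells and -2.76 ± 0.0721 in regular cells, a difference of -2.36 (exact permutation p = 0.00833, adjusted 0.0125). In each of these 3 pairs the 7 deficient libraries lay wholly on one side of the 3 regular libraries. For the exporters Abcg1 and Abca1 it was 0.66 ± 0.430 in deficient cells and -1.61 ± 0.226 in regular cells, a difference of 2.27 (exact permutation p = 0.00833, adjusted 0.0125).

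Other ratios compared steps of the pathways. Hmgcs1 fell more than Acat2, the step before it, with a difference in log2 ratio of -0.66 (exact permutation p = 0.00833, adjusted 0.0125). The Acat2 level is uncertain, since 39.1% of its 50-base stretches are shared with Acat3. Fasn fell less than Hmgcs1, with a difference of 0.92 (exact permutation p = 0.00833, adjusted 0.0125). The ratio of Nr1h3 to Nr1h2 was higher in deficient cells by 0.55 (exact permutation p = 0.0333, adjusted 0.0429), a call that rests on few Nr1h3 counts and was lost with a pseudocount of 1 (0.45), without any one of the 3 regular libraries (0.49 to 0.58), without deficient library 1, 2 or 4 (0.46 to 0.52) and without deficient libraries 5 to 7 (0.71). Insig1 to Srebf2 differed by -0.51 (exact permutation p = 0.133, adjusted 0.15) and Abca1 to Hmgcs1 by 0.37 (exact permutation p = 0.217, adjusted 0.217), and neither passed. Their deficient values ranged from -0.41 to 0.87 and from -2.998 to -1.91, on both sides of the regular libraries.

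**Figure D5:**
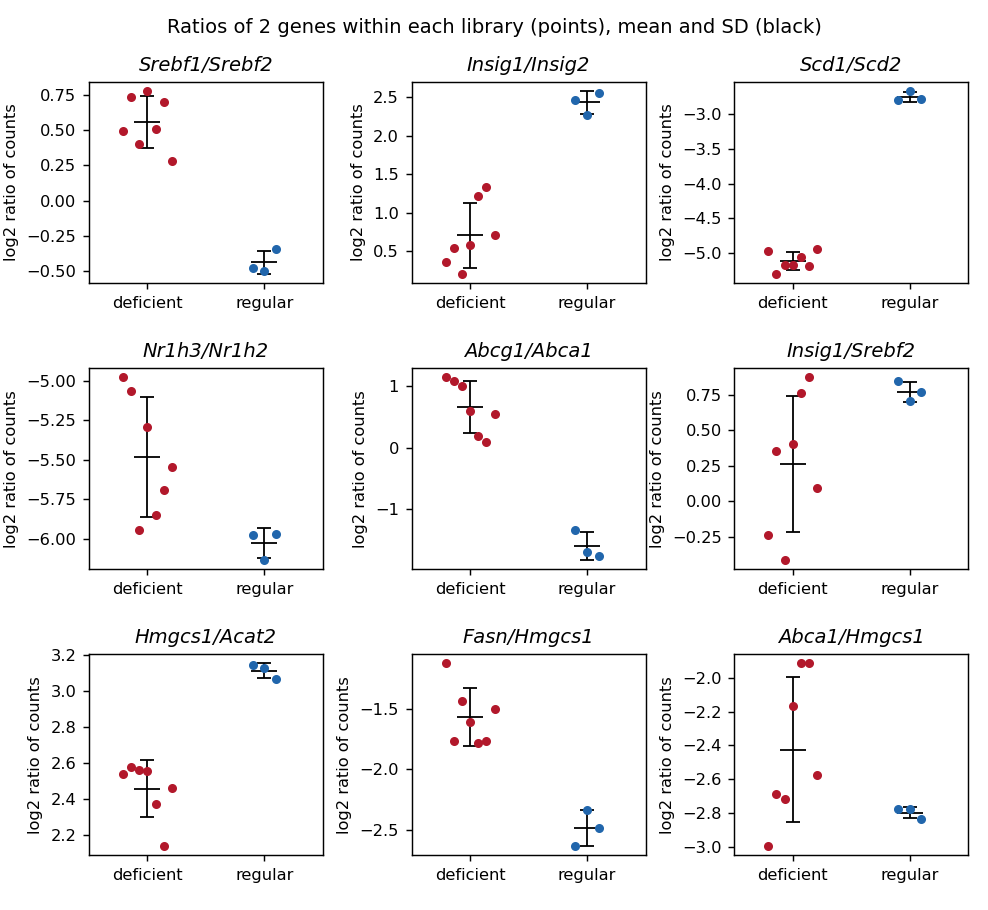
Log2 ratio of the counts of 2 genes within each library, deficient left and regular right, for the 9 pairs tested, with mean and SD in black; each panel has its own axis, which does not start at 0. The groups are apart for Srebf1/Srebf2, Insig1/Insig2, Scd1/Scd2, Nr1h3/Nr1h2, Abcg1/Abca1, Hmgcs1/Acat2 and Fasn/Hmgcs1, and overlap for Insig1/Srebf2 and Abca1/Hmgcs1.

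Genes of the same pathways outside the list moved in both directions, with more of the 2-fold changes downward in both synthesis lists. Over all genes tested, 28.6% fell and 29.4% rose, and 8.71% fell and 10.3% rose by at least 2-fold. The counts of the esterification and fatty acid oxidation lists below lie near the shares of all genes. Of 14 tested genes of cholesterol synthesis, uptake and SREBP processing, 8 fell and 5 rose, with a median log2 fold change of -0.39. Of these, 3 fell and none rose by at least 2-fold, and the values ran from -2.04 to 0.69. Lipa, the lysosomal lipase that frees cholesterol from its esters, fell by 0.74 on the log2 scale, while Pgrmc1, a sterol-binding membrane protein, and Ggps1, which draws farnesyl diphosphate off to geranylgeranyl diphosphate, rose by 0.69 and 0.505. The protease gene Mbtps2, which makes the second cut of SREBP, rose by 0.66. Of 14 tested genes of fatty acid synthesis and modification, 9 fell and 4 rose, with a median of -0.40. Of these, 4 fell and 1 rose by at least 2-fold, and the log2 fold changes ran from -2.99 to 1.47, so the largest fall of this list exceeded that of every one of the 36 genes. Among the falls were -1.32 for Acacb, the mitochondrial acetyl-CoA carboxylase, -1.01 for Acsl3, an acyl-CoA synthetase, and -0.82 for Elovl5, an elongase of polyunsaturated fatty acids. Acacb was at a low level, with means of 1.11 CPM in deficient cells and 2.56 CPM in regular cells. Mid1ip1, an activator of acetyl-CoA carboxylase, Elovl7 and Elovl1 rose by 0.74, 1.47 and 0.43. The cholesterol esterification genes went opposite ways: Soat1 stood at 87.2 ± 4.83 CPM in deficient cells and 144 ± 3.19 CPM in regular cells and Soat2 at 42.8 ± 3.64 CPM in deficient cells and 16.4 ± 0.373 CPM in regular cells, changes of -0.81 (SE 0.0554, edgeR adjusted p = 1.10e-08) and 1.29 (SE 0.104, edgeR adjusted p = 6.33e-08). In that list of 7 tested genes of esterification, oxysterols and efflux, 2 fell and 2 rose, the others being Abca7 at -0.73 and Apoe at 0.996, with a median of 0.042. Of 10 fatty acid oxidation genes 3 fell and 2 rose, with a median of 0.039; Cpt1a, which admits fatty acids to mitochondria, fell by 1.34, Hadha and Acadl by 0.44 and 0.42, and Slc25a20 and Acaa2 rose by 0.40 and 0.20.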

How the data were processed

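RNA of 10 TH2 libraries was sequenced with a stranded total RNA kit made for globin depletion, per the labels' protocols. The authors deposited raw counts per Ensembl gene, for which the submitters' processing notes name STAR (2.7.10a), HTSeq (0.13.5) and the build GRCm38. Neither the strand setting of HTSeq nor the gene annotation is given in the sources used here. Of 49671 identifiers, 49412 matched GENCODE M21, and the other 259 held 0.0226% of the counts. Genes were filtered with edgeR 4.0.16 (filterByExpr, minimum count of 10), scaled by TMM and tested by quasi-likelihood with diet and batch as terms in all 10 libraries, with Benjamini-Hochberg adjustment over 13699 genes. The standard error is the log2 fold change divided by the root of its F. The common biological coefficient of variation was 12.7%. Replicate pairs differed beyond counting noise, with a chi-square per gene of 2.82 to 49.9 over 24 pairs. Ratios of genes within libraries used a pseudocount of 0.5. CPM per kb divides by the union of annotated exons.

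Alternatives were other scalings, count filters and pseudocounts, DESeq2 1.42.0, limma-voom 3.58.1, no batch term, each batch alone, sex as a term, thinned counts, a threshold of 0.01, and libraries left out. Since the labels give no sex, the sex term was set by whether Xist reached 10 CPM in a library. The steps were tested on simulated data. The 36 members and all lists were chosen with earlier results of these data known. Values by library (the lowest, median and highest of the 7 deficient libraries and each of the 3 regular ones) are given for the 12 genes of smallest adjusted p with a mean of at least 10 CPM, every gene that rose, the regulators, the LXR genes and 1 gene on each side of the threshold (Scd2 and Srebf1); Dhcr7, Acly, Acaca, Acacb, Acsl3, Pcna, Mcm2, Mcm5 and some others were added after their values were seen. Of the other pathway lists, up to 3 genes of smallest adjusted p in each direction are named, and some genes that this rule gives, with the largest falls of both synthesis lists, are not reported here.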

Additional observations from a re-analysis of the deposited data

How the results depend on the processing

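All 20 SREBP-2 targets fell in every alternative run, with a median between -1.38 and -1.14, and between 25 and 29 of the 36 genes fell. Of 855 values of single genes under the alternatives, 822 kept their direction and side of the threshold, 16 lost the call, 1 gained it and 16 changed sign. The number of members that rose was 1 within batch 1, 1 without deficient libraries 5 to 7, 1 at an adjusted p below 0.01, and 1 to 2 with a library left out. The median of the members was -0.84 within batch 2, where 1 regular library stands against 2 deficient ones and is taken to share their spread. The number of LXR targets that fell was 0 without the count filter, 0 within batch 2 and 0 at an adjusted p below 0.01. Without deficient libraries 5 to 7 the batch term called 15 genes, but batch 2 then holds 1 regular library alone, so this is no test of replicated batches. Sign changes touched 3 genes that had not passed. Insig2 was -0.046 within batch 1, -0.042 without deficient libraries 5 to 7, and -0.048 to 0.17 with a library left out. Acly was 0.078 on total counts, 0.014 on upper quartiles, 0.10 without the count filter, 0.087 within batch 2, 0.011 with sex as a term, and -0.047 to 0.035 with a library left out. Nr1h2 was 0.014 on total counts, 0.038 without the filter, 0.057 within batch 2, and -0.14 to 0.065 with a library left out. Within batch 1 no pair passed the exact test, where the lowest adjusted p was 0.0714. Its 5 deficient and 2 regular libraries give few arrangements, so a pass needed all 9 pairs at the smallest possible p. No conclusion is drawn from that outcome. In batch 1 the differences in log2 ratio were 1.07 for Srebf1/Srebf2, -1.79 for Insig1/Insig2, -2.39 for Scd1/Scd2, 0.63 for Nr1h3/Nr1h2, 2.33 for Abcg1/Abca1, -0.62 for Hmgcs1/Acat2 and 0.94 for Fasn/Hmgcs1. Nr1h3/Nr1h2 was 0.45 with a pseudocount of 1, 0.71 without deficient libraries 5 to 7 and 0.46 to 0.63 with a library left out. The cause of these changes was not tested. The median of all genes was 0.10 on total counts and 0.19 without the count filter. No paired analysis was possible because the labels give the libraries no replicate numbers. In simulated libraries of these group sizes and totals, 34 of 67 genes changed 1.5-fold were recovered as were 60 of 67 changed 2-fold and 58 of 66 changed 4-fold, so changes of each size can be missed. A changed gene that the count filter removed counted as not recovered, and the filter left 13257 genes. Of 164 calls, 12 were false. The simulation changed few genes and had a common dispersion and no batch effect, whereas 58.0% of genes passed in the data. These rates therefore need not hold for the data.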
